A study of Mus musculus with 4 samples.

Results

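Zfp827, Pitpnc1, Gnao1, Sept9, Sfxn5, Gse1, Arhgap26, Arhgef37, Myc and Tob2 are 10 of the 19802 protein-coding loci with a peak in snATAC-seq of mouse inguinal white adipose tissue (iWAT). A locus was taken as the gene body with 50 kb on either side in GRCm38 (mm10), and every peak overlapping it was counted, which gave the 10 loci 552 of 189598 peaks. The genes were selected on the accessibility of their loci and peaks in these same nuclei, as higher in the beige than in the white adipocyte cluster or rich in peaks that were. Differences between clusters are therefore given below as a description without a test, and tests are kept for the effects of treatment. These tests are not free of that selection where the share of beige nuclei differs between groups or where the gap between clusters is tested. The same holds where CL and cold are compared within beige nuclei.

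snATAC-seq maps open chromatin with the Tn5 transposase, which cuts and tags DNA that nucleosomes leave free, and barcodes tell the nuclei apart. Male C57BL/6 mice were kept for 14 days at room temperature and were 8 weeks old when treatment began. They were sampled at day 0 at 22 °C (day0RT) or after 1, 3 or 7 days at 6.5 °C (day1C, day3C and day7C). The others were sampled after 1, 3 or 7 days of CL at 1 mg/kg at room temperature (day1CL, day3CL and day7CL). CL-316,243 is an agonist of the β3-adrenergic receptor, through which sympathetic nerves act on fat cells in the cold. Each group had 3 mice, with no genetic change named in the labels, and the depot was taken whole, with its immune, vascular and progenitor cells.

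Beige adipocytes are thermogenic fat cells that arise within white depots in the cold or under β3-adrenergic stimulation and burn fuel in mitochondria uncoupled by UCP1. White adipocytes store triglyceride and share the adipogenic program driven by PPARG. The 10 genes belong to different pathways. Gnao1 encodes the alpha subunit of the heterotrimeric G protein Go, and Pitpnc1 encodes a phosphatidylinositol transfer protein. Arhgap26, also called GRAF, is a GTPase-activating protein for RHOA and CDC42, and Arhgef37 belongs to the Dbl family of guanine nucleotide exchange factors. Sept9 is a septin, a GTP-binding protein that assembles into filaments, and Sfxn5 is a sideroflexin of the mitochondrial inner membrane. Zfp827 is a zinc finger protein known to recruit the NuRD complex, Gse1 encodes a coiled-coil protein found with the CoREST and BHC corepressor complexes, Myc is a basic helix-loop-helix transcription factor that drives growth, and Tob2 is an antiproliferative protein of the BTG and TOB family that binds the CCR4-NOT deadenylase.

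On GRCm38, Zfp827 is at chr8:79028437-79193766 and Gnao1 at chr8:93809966-93969388 on the + strand, with 26 and 23 peaks in their loci, and Gse1, with 133 peaks, is at chr8:120228456-120581390 on the + strand. Pitpnc1 is at chr11:107207892-107470699 on the - strand with 59 peaks and Sept9 at chr11:117199661-117362325 on the + strand with 82. Sfxn5, at chr6:85213049-85333422 on the - strand, has 33 peaks, Myc, at chr15:61985391-61990374 on the + strand, has 18, and Tob2, at chr15:81848272-81858796 on the - strand, has 23. Arhgap26 and Arhgef37, on chromosome 18, have 120 and 35. The median over all loci was 17 peaks, and no peak was shared between the 10 loci.

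The deposited matrix held 32552 nuclei in 12 annotated clusters, with 5935 white and 1069 beige adipocytes. A matrix entry is 1 where a nucleus had reads in a peak, so the sum over a locus counts pairs of nucleus and peak. The level of a locus is given as entries per 1000000 entries (CPM) of the same mouse and cluster. Mice had 1111 to 2021 nuclei. The median number of entries per white nucleus ranged from 1342 to 6755 between mice. A total of 8739 nuclei had a barcode that also occurred in another mouse, always on another day of the same treatment and mouse number, 21.5% of these pairs lay in the same cluster, and none involved a day0RT nucleus. Libraries with under 10 nuclei of a cluster were dropped, which removed the beige nuclei of 2 day1CL mice and left 19 mice with both adipocyte clusters. In a check of the labels, 5 adipocyte markers summed to 2444 CPM in white and 2440 CPM in beige nuclei and to at most 1149 CPM elsewhere, and the beige markers summed to 1938 CPM in beige, 1042 CPM in white and 203 to 507 CPM in the remaining clusters. The cluster labelled VSMC went against its name, with 1668 CPM over the skeletal muscle markers, the highest of all clusters, and 933 CPM over the smooth muscle markers, and is called the VSMC-labelled cluster here.

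At each of the 10 loci the peak with the largest beige minus white difference lay in an intron or between genes. Peaks are placed by the distance of their centre from the gene start along the direction of transcription. Windows of 200 bases from 5 of these peaks are shown as examples. They are read from the GRCm38 + strand. Each whole peak was searched on both strands for 9 motifs, and capitals mark a match. The window was centred on a match where the peak held one, as at Tob2 and Gse1, and on the peak centre otherwise. The matches shown are therefore not comparable with shares of central windows. The Tob2 window, chr15:81845449-81845648, lies between genes 13.02 kb from the start and holds the ESRR motif TCAAGGTCA. The Gse1 window, chr8:120500629-120500828, lies in an intron shared by the annotated genes Gse1 and Gm20388, 272 kb from the Gse1 start, and its capitals are a PPAR-RXR DR1 motif followed by the NBRE motif AAAGGTCA. The Gnao1 window, chr8:93830771-93830970, lies in an intron 20.9 kb from the start, the Zfp827 window, chr8:79162972-79163171, in an intron 135 kb from the start, and the Sept9 window, chr11:117195681-117195880, between genes 3.88 kb upstream of the annotated start. These last windows held no match, which says only that the letters searched are not there. The peaks with the largest difference at Pitpnc1, Sfxn5 and Myc, which are not shown, held no match either.
Tob2: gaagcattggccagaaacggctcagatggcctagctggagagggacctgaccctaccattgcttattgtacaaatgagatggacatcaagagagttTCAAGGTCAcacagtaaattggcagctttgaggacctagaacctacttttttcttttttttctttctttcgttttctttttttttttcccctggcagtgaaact
Gse1: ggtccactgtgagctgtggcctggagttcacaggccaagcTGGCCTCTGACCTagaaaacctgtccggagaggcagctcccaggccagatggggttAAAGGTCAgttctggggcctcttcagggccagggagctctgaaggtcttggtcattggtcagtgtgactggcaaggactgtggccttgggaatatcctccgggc
Gnao1: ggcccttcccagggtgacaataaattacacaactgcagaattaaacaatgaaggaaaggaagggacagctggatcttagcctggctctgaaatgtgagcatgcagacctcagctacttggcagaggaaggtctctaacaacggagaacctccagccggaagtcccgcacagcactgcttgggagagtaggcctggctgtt
Zfp827: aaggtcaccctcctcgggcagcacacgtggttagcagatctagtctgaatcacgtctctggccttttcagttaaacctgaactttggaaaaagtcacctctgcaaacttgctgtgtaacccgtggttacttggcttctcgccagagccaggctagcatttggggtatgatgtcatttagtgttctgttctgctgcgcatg
Sept9: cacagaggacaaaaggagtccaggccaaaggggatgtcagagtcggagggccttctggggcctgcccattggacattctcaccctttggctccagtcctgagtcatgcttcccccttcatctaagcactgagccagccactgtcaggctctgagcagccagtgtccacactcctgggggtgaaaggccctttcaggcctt

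The Tob2 peak around that window had 23.4 CPM in white and 70.9 CPM in beige nuclei and was higher in beige nuclei of all 19 mice. The Gse1 peak had 8.54 CPM in white and 25.8 CPM in beige nuclei, with the beige nuclei higher in 16 mice. The Gnao1 peak had 11.2 CPM in white and 35.5 CPM in beige nuclei and was higher in beige nuclei of all 19 mice. The Zfp827 peak differed 5.78-fold, from 2.93 to 17.0 CPM, and the Sept9 peak 6.35-fold, from 3.23 to 20.5 CPM. Outside adipocytes, the Gnao1 peak had at most 0.693 CPM in the lymphocyte and macrophage clusters but 8.54 and 8.25 CPM in the progenitor clusters APC1 and APC2. The Sept9 peak reached 9.18 CPM in macrophages. The Tob2 peak had a higher mean in the VSMC-labelled cluster, at 95.1 ± 35.4 CPM (SD, n = 10), than in beige nuclei, at 70.9 ± 27.1 CPM (n = 19). The Gse1 peak reached 18.7 ± 26.2 CPM in the VSMC-labelled cluster, and the Zfp827 peak 9.72 ± 14.3 CPM in APC1.

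The letters searched were TCAAGGTCA for ESRR, AAAGGTCA for NBRE, TGACGTCA for the cyclic AMP response element and TTGCGCAA for C/EBP, besides the longer MEF2, PPAR-RXR DR1, NFI, NR3C and EBF consensus motifs. ESRR and NBRE share their last letters but not their whole match. Over all 552 peaks of the 10 loci, 13 (2.36%) held the ESRR motif, against 1.13% of all deposited peaks and 0.423% of the central 200 bases of all peaks. The NBRE motif, read by NR4A receptors, occurred in 16 (2.90%) against 3.80% of all peaks, and the cyclic AMP response element TGACGTCA in 3 (0.543%) against 0.748%. The EBF motif occurred in 25 (4.53%) against 2.28%, and the MEF2 motif in 16 (2.90%) against 6.27%. NR3C, the class of the glucocorticoid receptor, occurred in 12 (2.17%) against 1.51%, C/EBP in 2 (0.362%) against 0.208%, PPAR-RXR DR1 in 2 (0.362%) against 0.302% and NFI in 0 against 0.102%. Of the 70 peaks of these loci that were past 2-fold higher in beige nuclei, 5 (7.14%) held ESRR, 5 (7.14%) NBRE, 6 (8.57%) MEF2, 8 (11.4%) EBF and 0 the cyclic AMP response element or NR3C. The shares over all peaks past 2-fold genome-wide were not computed. The shares of the 70 peaks are therefore not a result about these loci. The GC content was 52.2% in the 552 peaks and 47.9% in all peaks, and the median width 434 and 393 bases, so the shares are not matched for composition or length. The 70 peaks, which also had to hold at least 100 adipocyte entries, were not matched either.

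In beige nuclei the loci of Zfp827, Gnao1, Sept9, Pitpnc1 and Sfxn5 were more than 1.5-fold more accessible than in white nuclei, and those of Arhgef37 and Tob2 were 1.47-fold and 1.42-fold higher. Gse1 and Arhgap26, whose loci hold the most peaks, differed by 1.14-fold and 1.09-fold, and Myc was the exception, with a level in beige nuclei 0.832 times that in white nuclei. Among 18945 loci with at least 100 adipocyte entries the median ratio was 1.01, 607 loci (3.20%) were past 1.5-fold, and 228 (1.204%) were higher in beige nuclei of all 19 mice, a set that holds 5 of the 10 genes. Ranked by the ratio, Zfp827 stood at 21, Gnao1 at 136, Sept9 at 147, Pitpnc1 at 160, Sfxn5 at 453 and Myc at 15482.

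**Figure D1:**
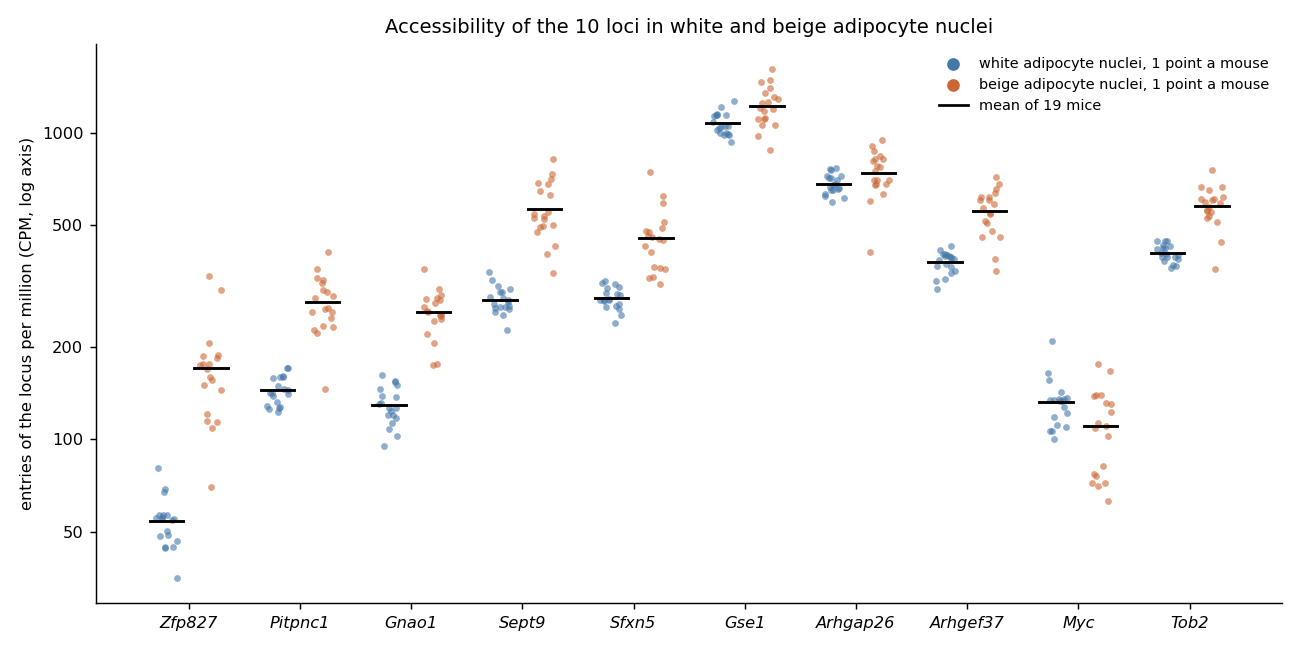
Level of each locus in CPM in white and beige nuclei of the same mouse, on a log axis, with 1 point per mouse for 19 mice and horizontal bars at the means. Gnao1 shows no overlap between clusters, Zfp827 the widest ratio, and Myc is the locus whose beige level lies below its white level on average.

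Among the signalling proteins, Gnao1 had 94.9 to 162 CPM in white nuclei, with a median of 127, and 175 to 358 CPM in beige nuclei, with a median of 259, so the lowest beige value was above the highest white value. Pitpnc1 had a lowest, median and highest level of 123, 142 and 171 CPM in white nuclei and of 146, 268 and 409 CPM in beige nuclei, and was higher in beige nuclei of 18 mice. Arhgef37 had 310, 388 and 428 CPM in white and 353, 568 and 716 CPM in beige nuclei, and the ranges overlapped although the beige value was higher in each of the 19 mice. Arhgap26 had 592, 672 and 768 CPM in white and 409, 747 and 943 CPM in beige nuclei, with the beige nuclei higher in 15 mice.

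The septin locus Sept9 had 228, 281 and 352 CPM in white and 349, 533 and 818 CPM in beige nuclei, touching only at the ends of the ranges. Sfxn5, which encodes the mitochondrial carrier, had 240, 285 and 329 CPM in white and 321, 448 and 745 CPM in beige nuclei. Both were higher in beige nuclei of all 19 mice. For the nuclear proteins, Zfp827 had 35.4, 55.0 and 80.7 CPM in white and 70.0, 170 and 340 CPM in beige nuclei, and Gse1 had 929, 1048 and 1272 CPM in white and 874, 1201 and 1607 CPM in beige nuclei. Myc had 99.9, 133 and 209 CPM in white and 62.8, 111 and 176 CPM in beige nuclei and was higher in the beige nuclei of 5 mice. Tob2 had 363, 401 and 445 CPM in white and 358, 591 and 757 CPM in beige nuclei, with the beige nuclei higher in 18 mice. The lowest Tob2 and Arhgap26 values in beige nuclei were those of day0RT mouse 2, whose beige sum held 12 nuclei. They rest on 7 and 8 entries. The same mouse gave the highest beige values of Gnao1, Pitpnc1, Sept9 and Arhgef37, from 7, 8, 16 and 14 entries.

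The beige signal was spread over many peaks at some loci and rested on a few at others. Of 294 peaks of the 10 loci with at least 100 adipocyte entries, 70 (23.8%) were past 2-fold higher in beige nuclei, where 5.65% of 74899 peaks genome-wide were, and 13 were under 0.5-fold, where 12.6% of peaks genome-wide were. Of the 70 peaks, 52 lay in introns, 11 between genes, 3 in exons and 4 at gene starts. All 8 such peaks of Zfp827 were past 2-fold, as were 7 of 14 at Gnao1, 15 of 33 at Sept9, 6 of 14 at Pitpnc1 and 7 of 22 at Sfxn5. At Gse1 it was 9 of 84, at Arhgap26 8 of 57, at Arhgef37 5 of 30, at Tob2 5 of 23 and at Myc 0 of 9. The peaks next to the line were an Arhgap26 peak 23.4 kb from the start, at 2.00-fold, and a peak at the Pitpnc1 start, at 1.97-fold. The 3 strongest peaks made up 66.0% of the net difference at Arhgap26, 58.6% at Arhgef37 and 56.3% at Tob2, against 16.2% at Sept9. In a net difference, peaks lower in beige nuclei cancel part of the others. The ratio was above 1 at 30 of 57 peaks of Arhgap26, 22 of 30 of Arhgef37, 21 of 23 of Tob2 and 30 of 33 of Sept9.

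**Figure D2:**
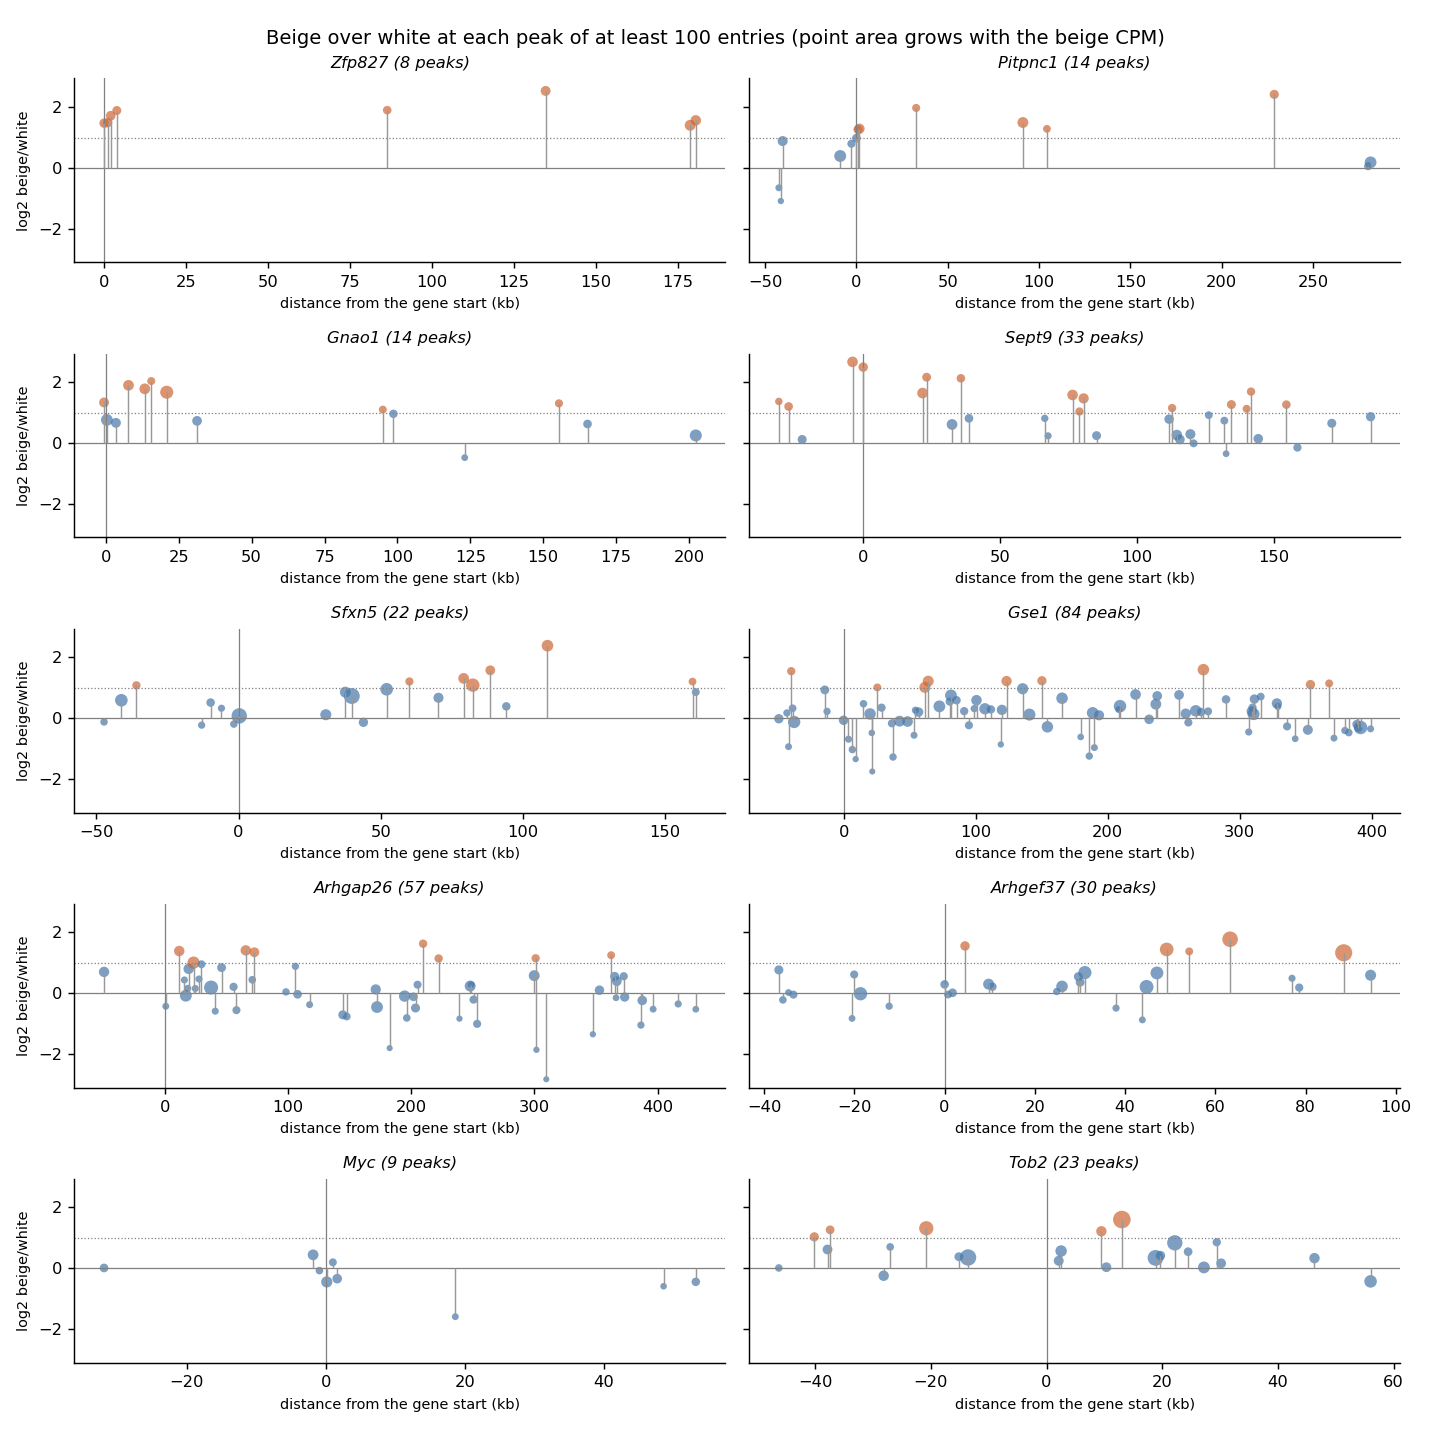
Beige to white ratio on a log2 axis of each peak with at least 100 adipocyte entries against its distance from the gene start in kb, with 1 panel per gene, a dotted line at 2-fold, peaks past it in orange and point areas that grow with the beige CPM. All 8 peaks of Zfp827 lie above the line, Sept9 and Gnao1 have peaks above it along the locus, and Gse1 and Arhgap26 have a few above it among many near 0.

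At gene starts the clusters differed for 4 of the genes and less for the others. Within 2 kb of the annotated start, Sept9 had 2.60 CPM in white and 14.6 CPM in beige nuclei, a ratio of 5.63. The same window had 15.0 and 44.2 CPM at Zfp827, 18.4 and 42.2 CPM at Pitpnc1 and 22.7 and 43.9 CPM at Gnao1. The starts of Sfxn5, Arhgef37 and Tob2 had ratios of 1.03, 1.07 and 1.19, although their loci were at 1.42 or above, and those of Gse1, Myc and Arhgap26 had ratios of 0.953, 0.921 and 0.744. At Arhgef37, the peak with the largest difference lay 88.4 kb from the start, between genes, with 26.5 CPM in white and 66.6 CPM in beige nuclei, and the gene start nearest to it was that of Ppargc1b, a coactivator of mitochondrial gene expression, at 47.7 kb. The Tob2, Pitpnc1, Gnao1, Sfxn5, Gse1 and Arhgef37 loci also hold the starts of other genes, among them Tef near Tob2 and Csnk1a1 near Arhgef37, so their sums are not those of a gene alone.

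Across the 12 clusters, Gnao1 and Sfxn5 were highest in beige nuclei and next highest in white nuclei, at 259 ± 44.1 and 127 ± 22.4 CPM (SD, n = 19 and 21) for Gnao1 and 454 ± 108 and 287 ± 23.5 CPM for Sfxn5. For both, the step from beige to white was larger than either SD. Zfp827 was also highest in beige nuclei, at 171 ± 63.9 CPM, but the endothelial cluster, at 158 CPM, was within that spread, and white nuclei were last of 12 at 55.7 CPM. Gse1, Arhgap26, Arhgef37 and Tob2 were highest in the VSMC-labelled cluster, at 1604, 747, 611 and 875 CPM, with beige nuclei next at 1223, 741, 553 and 577 CPM and white nuclei after them. The VSMC-labelled cluster and beige nuclei differed by more than the larger SD at Gse1 and Tob2 and by less at Arhgap26 and Arhgef37. Pitpnc1 was highest in lymphocytes, with 717 CPM in Cd8, 700 CPM in Cd4 and 604 CPM in T cells, while beige nuclei had rank 8 at 280 CPM and white nuclei were last at 142 CPM. Sept9 was highest in the endothelial cluster, at 764 ± 229 CPM, and beige nuclei had rank 6 with 564 CPM. The T cell, Cd8 and Cd4 clusters, at 744, 721 and 712 CPM, were within the endothelial spread. Myc was highest in Cd8 cells at 234 ± 32.5 CPM, with APC2 at 231 and Cd4 at 225 CPM within that spread. Beige nuclei had rank 11 for Myc at 110 CPM.

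**Figure D3:**
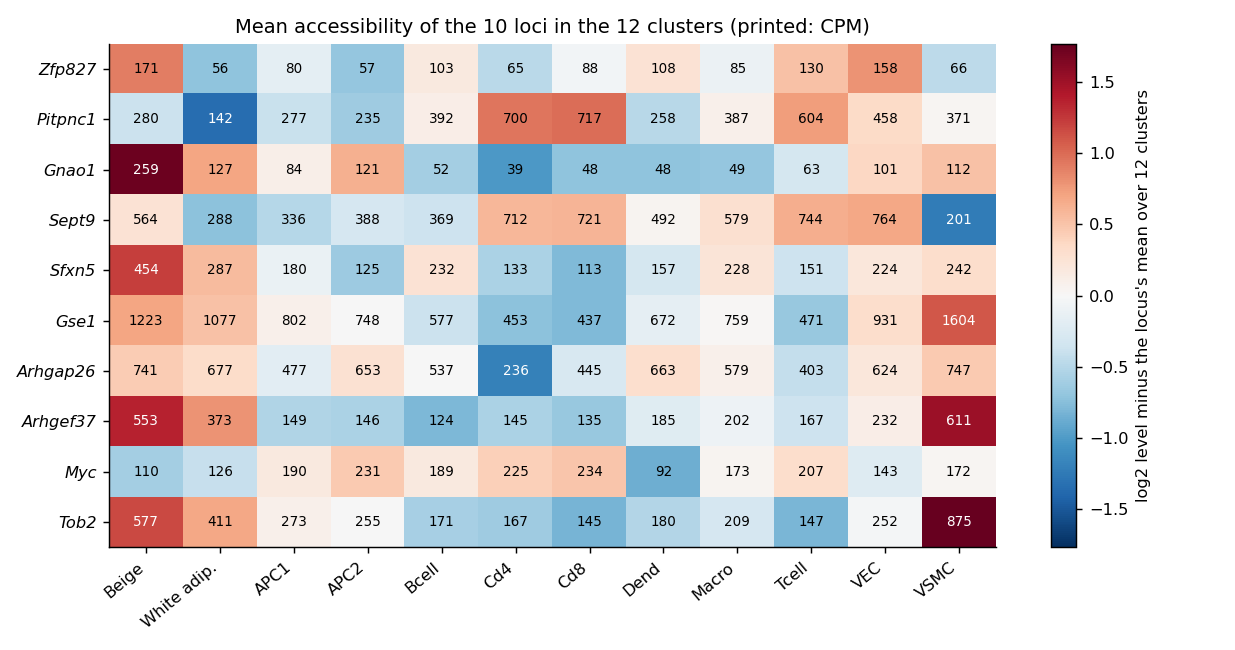
Mean level of each locus in each of the 12 clusters, printed in CPM, with the colour giving the log2 level relative to the mean of that locus over the clusters. Beige nuclei lead for Zfp827, Gnao1 and Sfxn5, the VSMC-labelled cluster leads for Gse1, Arhgap26, Arhgef37 and Tob2, and Pitpnc1 and Myc are led by Cd8 cells.

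Loci whose cluster pattern was most like that of a gene, by Pearson's r over the 12 cluster means and with no test, were Kcne1 (0.945) and Pde1c (0.940) for Gnao1, Lyrm2 (0.950) and Micu2 (0.942) for Pitpnc1, and Spred2 (0.936) and Cfap54 (0.925) for Sept9. For Sfxn5 they were Slc29a4 (0.925) and Mepe (0.906), for Zfp827 Gm44502 (0.887) and Prrg4 (0.846), for Tob2 Plcd3 (0.975) and Dcakd (0.964), and for Gse1 Btf3l4 (0.971) and 3110021N24Rik (0.969). For Arhgap26 they were Trim43c (0.886) and Tnrc18 (0.881), for Arhgef37 Nkx6-3 (0.964) and Cib2 (0.963), and for Myc Crtc3 (0.910) and Tulp1 (0.904). The points share their libraries and depths.

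Treatment was tested first in the sum of all adipocyte nuclei of a mouse, which asks whether the loci moved with days of cold or CL. By day 7 of cold the loci of Zfp827, Gnao1, Sept9 and Sfxn5 had risen and that of Myc had fallen. By day 7 of CL those of Zfp827 and Gnao1 had risen and that of Myc had fallen. Over 8 contrasts against day0RT, which share the same 3 control mice, 13 of 80 tests were called, 7 higher and 6 lower, by edgeR's quasi-likelihood test with Benjamini-Hochberg adjustment over all loci at 0.05, where 7.64% of all tests were. At day7C 5 of 10 loci were called against 10.2% of all loci, and at day7CL 3 of 10 against 14.4%. The loci were picked for beige accessibility, and the share of beige nuclei among adipocytes differed between these groups. These counts are therefore not independent of the selection.

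Zfp827 had 53.2, 50.2 and 64.8 CPM in the mice of day0RT, 100.1, 91.9 and 86.8 CPM at day7C and 98.4, 84.7 and 73.4 CPM at day7CL, without overlap. The log2 fold change was 0.67 ± 0.16 (SE, adjusted p = 0.0031) in cold and 0.65 ± 0.15 (adjusted p = 0.0019) with CL. Gnao1 had 128, 142 and 124 CPM at day0RT, 212, 176 and 157 CPM at day7C and 181, 166 and 186 CPM at day7CL, also without overlap, with log2 changes of 0.50 ± 0.12 (adjusted p = 0.0027) and 0.50 ± 0.11 (adjusted p = 0.0013). Sept9, at 312, 296 and 286 CPM, reached 430, 402 and 373 CPM at day7C, a log2 change of 0.46 ± 0.10 (adjusted p = 0.001). At day7CL it had 350, 318 and 353 CPM, above every control but not past the threshold (0.24 ± 0.10, adjusted p = 0.08). Sfxn5, at 258, 260 and 286 CPM, had 382, 351 and 338 CPM at day7C (0.42 ± 0.09, adjusted p = 0.0012) and 299, 308 and 304 CPM at day7CL (0.20 ± 0.09, adjusted p = 0.12). Its mean over the 3 cold times was also higher than day0RT, by 0.32 ± 0.08 (adjusted p = 0.0076).

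Myc moved the other way. It had 199, 134 and 159 CPM at day0RT, 131, 120 and 115 CPM at day7C, 101, 97.2 and 113 CPM at day3CL and 112, 124 and 133 CPM at day7CL, all below the lowest control. The log2 changes were -0.43 ± 0.12 at day7C (adjusted p = 0.018), -0.65 ± 0.12 at day3CL (adjusted p = 0.00018) and -0.44 ± 0.12 at day7CL (adjusted p = 0.0079). The fall at day1CL, of -0.61 ± 0.15 (adjusted p = 0.0056), came from mice with 144, 39.8 and 117 CPM and 29, 68 and 654 adipocyte nuclei. Over the 3 CL times the mean change was -0.56 ± 0.11 (adjusted p = 0.00023) and over the cold times -0.36 ± 0.11 (adjusted p = 0.032).

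Without day0RT mouse 1, the control with the highest Myc level, 8 of the 80 tests were called, and the Myc changes at day7C (-0.31), day1CL (-0.49) and day7CL (-0.32) and over the cold times (-0.24) and the Sfxn5 change over the cold times (0.27) were no longer past the threshold. Myc was also not called at day7C (-0.36) or over the cold times (-0.34) without day7C mouse 3, over the cold times without day0RT mouse 3 (-0.41), or at day7CL without day7CL mouse 1 (-0.34). That at day1CL was -1.37 and not called without day1CL mouse 3. The Myc changes at day3CL and over the CL times, those of Sept9, Sfxn5 and Zfp827 at day7C and that of Gnao1 at day7CL were called whichever mouse was left out. The Gnao1 change at day7C was not called without day0RT mouse 3 (0.46) or day7C mouse 1 (0.36), nor the Zfp827 change at day7CL without day7CL mouse 1 (0.47). With only the peaks within 2 kb of the start, Gnao1 had -0.18 at day7C and -0.073 at day7CL and Sfxn5 had -0.088 at day7C. These estimates rest on 2 peaks for each gene and showed no rise at the starts, but do not exclude a small one. With each nucleus thinned to 1000 entries and shallower nuclei left out, 2 of the 80 tests were called, and none of the called changes reversed.

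The changes of Pitpnc1, Gse1, Arhgap26, Arhgef37 and Tob2 did not pass the threshold in any of the 8 contrasts. At day7C their log2 changes were 0.20, -0.09, 0.20, 0.05 and 0.14, with SEs of 0.08 to 0.10. Tob2, for example, had 404, 363 and 436 CPM at day0RT and 423, 444 and 462 CPM at day7C, which overlapped.

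**Figure D4:**
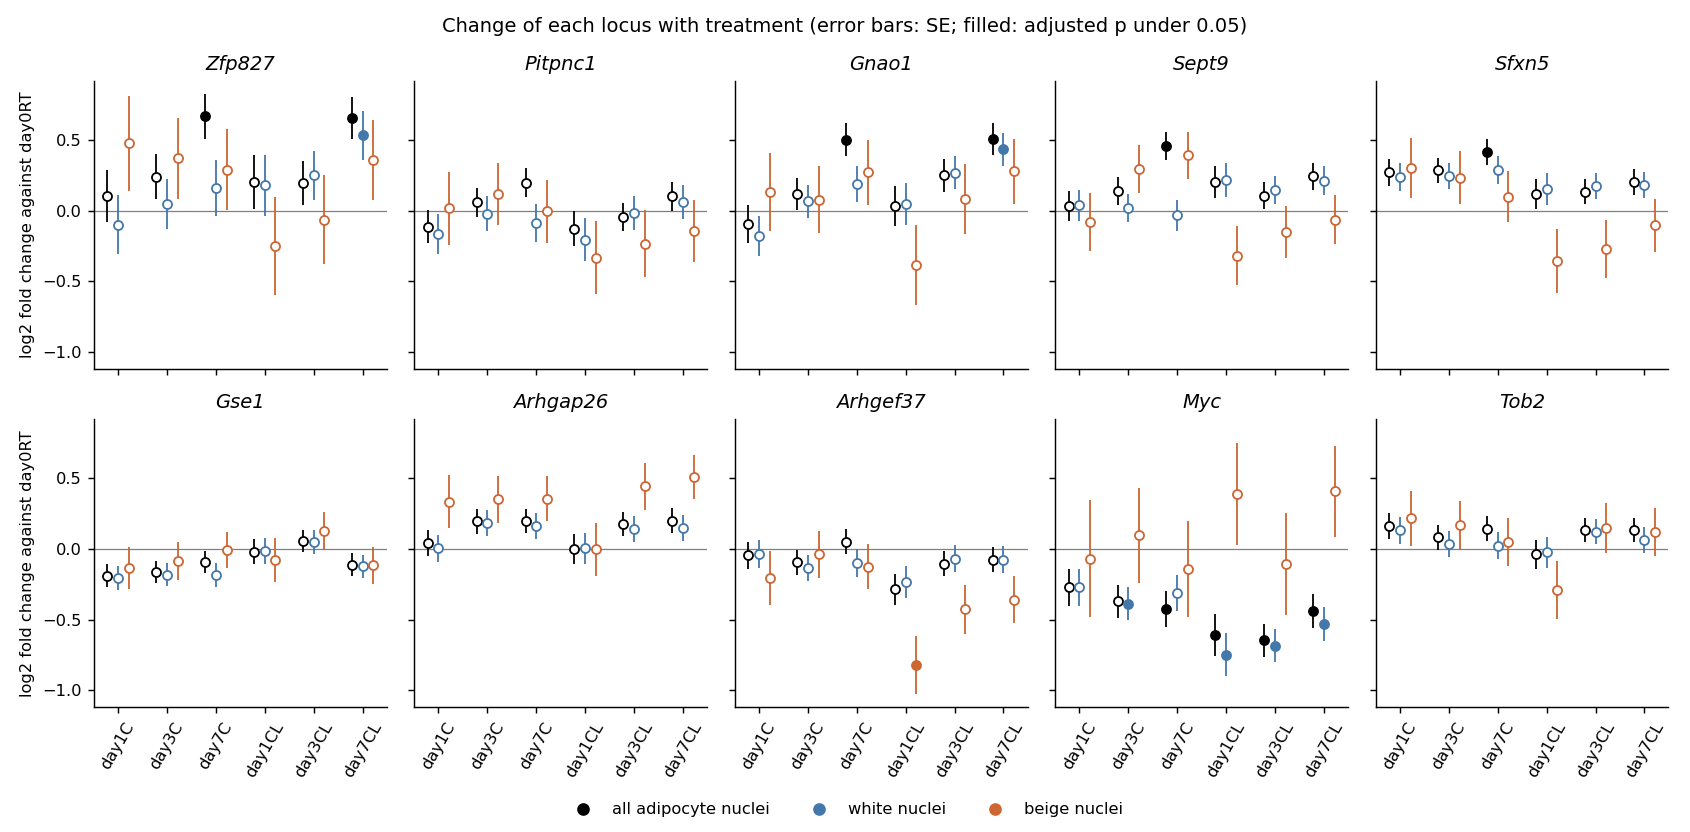
Log2 fold change against day0RT in all adipocyte, white and beige nuclei at days 1, 3 and 7 of cold and of CL, with error bars of 1 SE and filled symbols where the adjusted p is under 0.05. In all adipocyte nuclei Zfp827 and Gnao1 are higher at day 7 of both treatments, Sept9 and Sfxn5 at day 7 of cold, and Myc lies below 0 at every time.

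The share of beige nuclei among adipocytes moved with these groups. It was 7.69% to 12.2% between the mice of day0RT, 26.1% to 32.5% at day7C and 14.5% to 23.5% at day7CL. In the sum of all adipocytes, more beige nuclei and a higher level within each nucleus cannot be told apart, so white and beige nuclei were also fitted on their own.

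In white nuclei alone, 7 of 80 tests were called, 2 higher and 5 lower, against 5.88% of all tests. Zfp827 had 50.4, 35.4 and 56.6 CPM at day0RT and 80.7, 67.3 and 48.5 CPM at day7CL, where the ranges overlapped, and changed by 0.53 ± 0.17 (adjusted p = 0.030). Gnao1 rose from 120, 130 and 113 CPM to 162, 146 and 150 CPM at day7CL, without overlap, by 0.43 ± 0.12 (adjusted p = 0.0086). Without day7CL mouse 1, neither was called, at 0.26 for Zfp827 and 0.35 for Gnao1, and the Zfp827 call was also lost without day0RT mouse 1 or 2 and the Gnao1 call without day0RT mouse 3. At day7C the white nuclei did not pass the threshold for Sept9 (-0.03 ± 0.11, adjusted p = 0.91), Zfp827 (0.16 ± 0.20, adjusted p = 0.72), Gnao1 (0.19 ± 0.13, adjusted p = 0.45) or Sfxn5 (0.29 ± 0.10, adjusted p = 0.071). The day7C mice had 276, 288 and 228 CPM of Sept9 in white nuclei, on either side of the 281, 266 and 269 CPM of day0RT.

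Myc accounted for the 5 lower calls in white nuclei. Its level was 209, 136 and 165 CPM at day0RT, 134, 128 and 118 CPM at day3C, 106, 99.9 and 109 CPM at day3CL and 106, 122 and 133 CPM at day7CL. The log2 changes were -0.39 ± 0.12 at day3C (adjusted p = 0.049), -0.69 ± 0.12 at day3CL (adjusted p = 4.7e-05), -0.53 ± 0.12 at day7CL (adjusted p = 0.0017) and -0.66 ± 0.11 over the CL times (adjusted p = 2.1e-05). The day7C mice had 136.1, 136 and 134 CPM of Myc, close to the lower controls. The call at day3C was kept in 10 of 21 fits that each left out 1 mouse, that at day7CL was lost without day7CL mouse 1 (-0.40), and those at day1CL (-0.75 ± 0.15, adjusted p = 0.0010), day3CL and over the CL times were kept in all. B cell markers, all detected, summed to 546 to 620 CPM in white nuclei of day0RT. They were below that range at day1C (503 to 544 CPM), day3C (473 to 541 CPM), day7C (482 to 499 CPM) and day1CL (249 to 495 CPM), as was Myc at day3C and day1CL, and overlapped it at day3CL (492 to 560 CPM) and day7CL (529 to 564 CPM). T cell markers summed to 611 to 744 CPM at day0RT, 647 to 682 CPM at day3CL and 590 to 651 CPM at day7CL, which overlapped. The part of lymphocyte signal in the Myc change was not tested.

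In beige nuclei alone, 1 of 80 tests was called, against 0.489% of all tests, and 11 had an unadjusted p under 0.05. Among all 15480 loci, between 1196 (day1C) and 1917 (day7CL) had such a p in a single contrast. The call, which was lost without day0RT mouse 1 or 3, was Arhgef37 at day1CL, at -0.82 ± 0.21 (adjusted p = 0.023), where the only day1CL mouse with enough beige nuclei had 353 CPM and the day0RT mice had 653, 716 and 634 CPM, from 24, 12 and 22 beige nuclei. None of the rises of Zfp827, Gnao1, Sept9 or Sfxn5 at day 7 was called within beige nuclei, where day0RT libraries were small and spread widely. Zfp827, for example, had 70.0, 307 and 187 CPM in the beige nuclei of day0RT and 175, 184 and 156 CPM at day7C.

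CL and cold differed within beige nuclei at the septin, sideroflexin and Arhgef37 loci, which were all lower with CL. Over 4 contrasts of CL against cold, at days 1, 3 and 7 and for the mean of the times, 6 of 40 tests were called in beige nuclei, all lower with CL, against 1.68% of all tests. The loci were picked for accessibility in these same beige nuclei, so that share is not a matched comparison. Sept9 had 628, 735 and 647 CPM at day3C against 476, 521 and 349 CPM at day3CL, and 685, 682 and 708 CPM at day7C against 497, 401 and 544 CPM at day7CL. Neither day showed overlap, and the log2 differences were -0.45 ± 0.13 (adjusted p = 0.033) and -0.46 ± 0.10 (adjusted p = 0.0067). The mean over the times differed by -0.38 ± 0.08 (adjusted p = 0.0016).

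Sfxn5 had 490, 475 and 621 CPM in beige nuclei of day3C against 457, 321 and 335 CPM at day3CL, and 479, 445 and 459 CPM at day7C against 364, 426 and 408 CPM at day7CL. The groups did not overlap on either day, and the difference was -0.50 ± 0.14 at day 3 (adjusted p = 0.025) and -0.46 ± 0.09 for the mean (adjusted p = 0.00018). Arhgef37 had 615, 601 and 605 CPM at day3C against 514, 389 and 546 CPM at day3CL, and 568, 617 and 543 CPM at day7C against 456, 456 and 505 CPM at day7CL, again without overlap, and its mean differed by -0.41 ± 0.09 (adjusted p = 0.00046). The 3 means were called in all 18 fits that could be made without 1 mouse, the Sept9 differences at days 3 and 7 in 14 and 16 of 19, and that of Sfxn5 at day 3 in 15 of 19. The same 6 tests were called without the day 1 groups, where CL had 1 beige library, at -0.45, -0.36 and -0.31 for the means of Sept9, Sfxn5 and Arhgef37. The beige markers moved the same way. Their summed level was 2026 to 2125 CPM at day3C, 1596 to 1922 CPM at day3CL, 1928 to 2047 CPM at day7C and 1564 to 1832 CPM at day7CL, with all markers detected, and their part in these differences was not tested.

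In white nuclei 4 of 40 tests of CL against cold were called, against 2.46% of all tests, each for the mean over the times. Gnao1 (0.22 ± 0.07, adjusted p = 0.031), Gse1 (0.16 ± 0.05, adjusted p = 0.039) and Sept9 (0.18 ± 0.06, adjusted p = 0.040) were higher with CL, and Myc was lower (-0.33 ± 0.07, adjusted p = 0.0021). The Myc call was kept whichever mouse was left out, at -0.67 without day1CL mouse 3. Without the day 1 groups Myc was still called, at -0.26 (adjusted p = 0.045), and the others were not, and with 1 mouse left out Gnao1, Gse1 and Sept9 were called in 13, 11 and 11 of 21 fits. In all adipocyte nuclei together only Sfxn5 was called, 1 of 40 tests against 2.28% of all tests, at -0.17 ± 0.05 (adjusted p = 0.030), and it was called in 13 of 21 fits that each left out 1 mouse.

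Since Sept9 went down in beige and up in white nuclei, the difference between the clusters was tested itself, as the beige minus white difference of the CL mean against the cold mean within the same mice. It passed the threshold at 6 of 10 loci, which were selected on beige accessibility, against 3.78% of all loci. Sept9 had -0.57 ± 0.09 (adjusted p = 2.1e-07), Zfp827 -0.63 ± 0.16 (adjusted p = 0.0052), Sfxn5 -0.40 ± 0.09 (adjusted p = 0.0028), Arhgef37 -0.37 ± 0.09 (adjusted p = 0.0042) and Gnao1 -0.39 ± 0.12 (adjusted p = 0.042), so the beige to white gap was narrower with CL. Myc, whose level was on average lower in beige than in white nuclei, had 0.58 ± 0.16 (adjusted p = 0.017), so its beige level relative to the white was higher with CL. The gap also differed at day 3 for Sept9 (-0.59 ± 0.13, adjusted p = 0.0015) and at day 7 for Sept9 (-0.74 ± 0.11, adjusted p = 7.1e-07) and Myc (0.81 ± 0.20, adjusted p = 0.017). Without the day 1 groups only Sept9 (-0.66, adjusted p = 5.9e-11) and Arhgef37 (-0.33, adjusted p = 0.011) were called, with Sfxn5 at -0.28 (adjusted p = 0.056) and Zfp827 at -0.44 (adjusted p = 0.069). With each mouse of day1C, day3C, day7C, day3CL and day7CL left out in turn, Sept9 and Sfxn5 were called in all 15 fits. Arhgef37 was lost without day3CL mouse 2 (-0.31), Zfp827 without day1C mouse 3 (-0.49) or day7CL mouse 1 (-0.55), Myc was called in 10 and Gnao1 in 6. The beige markers summed on average to 2067 and 1977 CPM in beige nuclei of day3C and day7C, and to 1796 and 1688 CPM at day3CL and day7CL. In white nuclei they summed to 1014 and 1088 CPM at day3C and day7C, and to 1101 and 1107 CPM at day3CL and day7CL. The part of a gap shared with these markers was not tested.

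**Figure D5:**
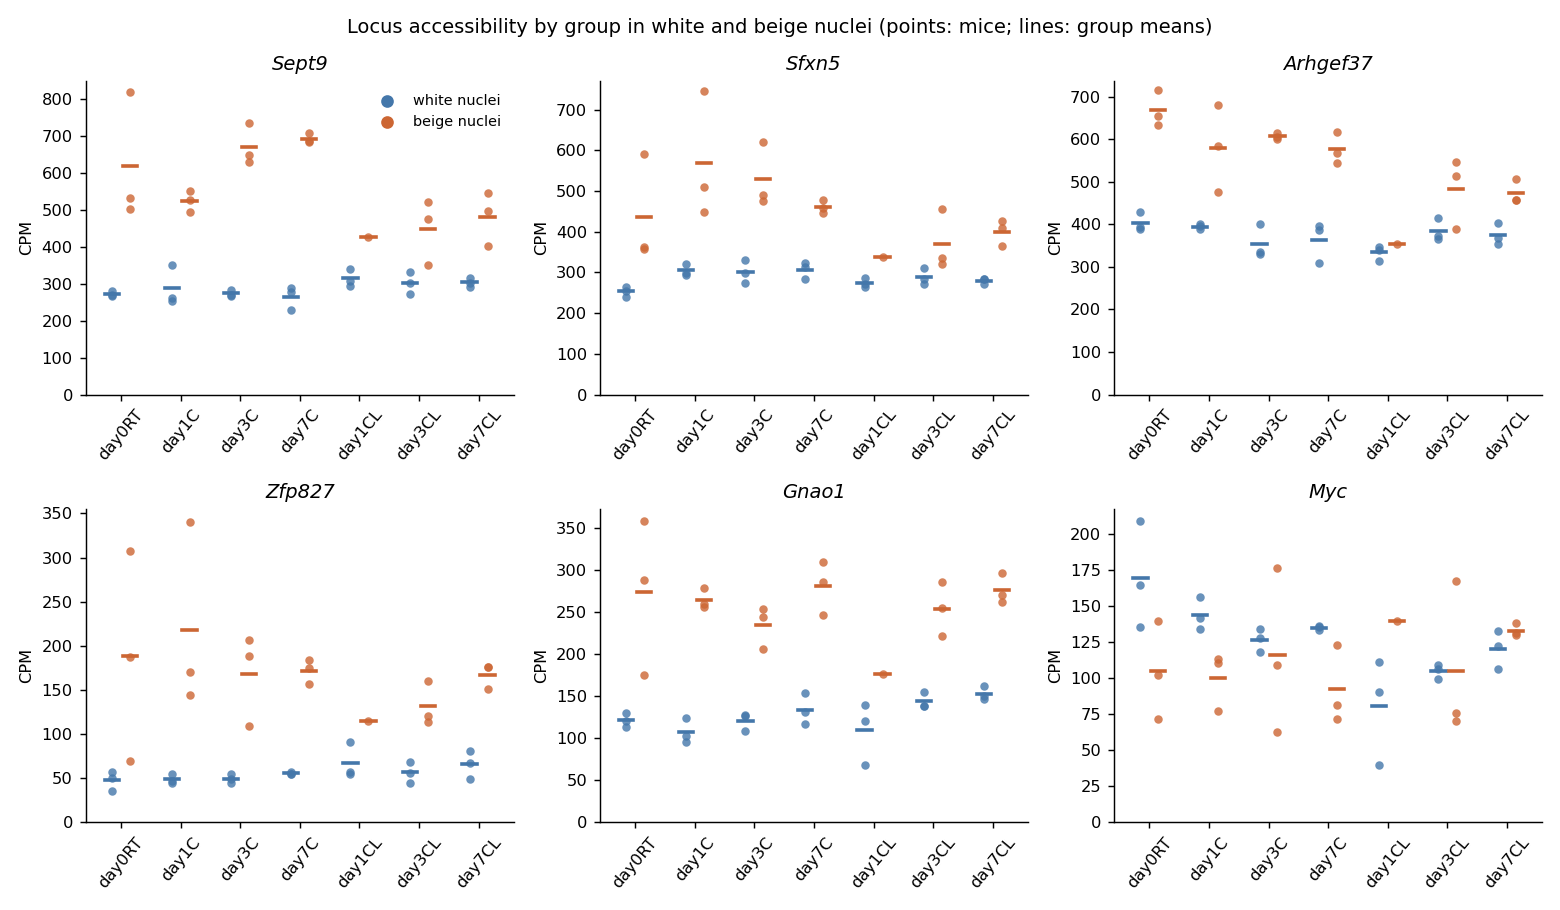
Level in CPM of the 6 loci named in its panels in white and beige nuclei by group, with 1 point per mouse and bars at the group means. Beige nuclei of day3CL and day7CL lie below those of day3C and day7C at Sept9, Sfxn5 and Arhgef37, and white nuclei of the CL groups lie below day0RT at Myc.

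Single peaks of the 10 loci were tested in all adipocyte nuclei in the same way. Of 1648 tests of 206 peaks against day0RT, 51 were called, 27 higher and 24 lower, in 22 distinct peaks, against 2.42% of all peak tests. White nuclei gave 13 calls of 1000, 5 higher and 8 lower, against 1.63%, and each of these was also called in all adipocytes. No peak was called with DESeq2, and the 51 calls became 16, 24 and 6 without day0RT mouse 1, 2 and 3. Gnao1 had 3 peaks that rose, Arhgap26 and Sfxn5 had 2 each, and Zfp827, Sept9 and Tob2 had 1 each, while Myc had 2 peaks that fell and Gse1 had 6 that fell and 1 that rose. Arhgef37 had 1 peak in each direction, the start peak of Sfxn5 fell at day7CL (-0.61 ± 0.18, adjusted p = 0.026), and Pitpnc1 had no call.

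In the sum of all adipocyte nuclei, peaks near Sept9, Zfp827, Gnao1 and Sfxn5 rose at day 7. The share of beige nuclei in that sum differed between the groups, and the loci were picked for beige accessibility. These rises are therefore not independent of the selection. No peak of Sept9, Zfp827, Gnao1 or Sfxn5 was called in white nuclei alone, where fewer peaks were tested. The upstream Sept9 peak whose central bases are printed had 0, 1.83 and 3.32 CPM at day0RT and 10.6, 11.8 and 12.6 CPM at day7C, a log2 change of 1.94 ± 0.49 (adjusted p = 0.010). A Zfp827 peak 179 kb from the start went from 1.66, 2.79 and 6.39 CPM to 12.6, 14.4 and 17.7 CPM at day7C (1.47 ± 0.40, adjusted p = 0.017). A Sfxn5 peak 109 kb from the start went from 1.66, 4.57 and 5.58 CPM to 14.3, 14.4 and 22.4 CPM at day7C (1.73 ± 0.40, adjusted p = 0.0039). The Gnao1 peak whose central bases are printed went from 6.65, 8.37 and 9.13 CPM to 17.9, 18.6 and 28.4 CPM at day7CL (1.16 ± 0.31, adjusted p = 0.013), and one 13.4 kb from the start from 0.913, 3.32 and 8.37 CPM to 10.5, 11.8 and 13.7 CPM (1.72 ± 0.42, adjusted p = 0.0050). None of these ranges overlapped, but the peaks were named because they were called, so this adds no support of its own. The day0RT sums held 601696, 358239 and 1094991 entries. The control levels of these peaks therefore rest on few entries and lie near the floor.

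At Arhgef37, neighbouring peaks went in opposite directions while the sum of the locus stayed within its error. The peak over the last exon, 44.8 kb from the start, fell from 41.9, 45.7 and 63.2 CPM to 27.8, 30.0 and 34.2 CPM at day7C (-0.69 ± 0.20, adjusted p = 0.026). The peak 63.3 kb from the start rose from 11.2, 15.5 and 16.6 CPM to 19.4, 32.0 and 32.6 CPM at day7CL (0.96 ± 0.25, adjusted p = 0.0096). The Myc start peak fell from 27.9, 42.0 and 53.2 CPM to 21.4, 22.6 and 26.8 CPM at day3CL (-0.79 ± 0.19, adjusted p = 0.0063), and a peak 31.9 kb upstream also fell (-1.05 ± 0.32, adjusted p = 0.038). At Gse1 the peak 28.6 kb from the start fell over the cold times (-1.42 ± 0.33, adjusted p = 0.0061). In CL against cold, 7 of 824 peak tests were called, against 0.991% of all peak tests, and all 7, in 6 peaks, were at Gse1 and higher with CL.

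In 7 non-adipocyte clusters, the progenitors APC1 and APC2, macrophages, B cells, T cells, Cd4 and Cd8 cells, none of 132 tests of the cold mean or the CL mean against day0RT was called for the 10 loci by edgeR, against 0.492% of all tests. An unadjusted p under 0.05 was reached by 13 of them, and DESeq2 called 0. Among all loci, such a p by edgeR was reached by between 559 of 12775 (macrophages, cold mean) and 3183 of 16312 (B cells, CL mean). The 13 are therefore not a result about these loci. The dendritic, endothelial and VSMC-labelled clusters were not fitted, since in each at least 1 group had fewer than 2 mice with 10 nuclei.

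Relatives and partners of the genes were counted in all adipocytes from lists of family members. Over all loci, 10.2% were called at day7C and 14.4% at day7CL, and the family counts were not tested against these shares. The thermogenic reference list, which is not independent of these samples, had 9 of 15 loci higher and 0 lower at day7C and 7 higher and 0 lower at day7CL, with medians of 0.39 and 0.26. Among the BTG and TOB family without Tob2, Btg3 rose by 0.81 at day7C and 0.82 at day7CL and Btg2 fell by 0.43 at day7C, of 4 tested. In the GRAF family Arhgap10 rose by 0.41 and 0.42 and Arhgap42 by 0.34 at day7CL, of 3. In the CoREST and BHC list of 8, Kdm1a, which encodes the demethylase LSD1, rose by 0.50 and 0.52, and 1 other locus was lower at day7CL. In the Myc network of 10, Max rose by 0.54 and Mga fell by 0.37 at day7C, and Mycn rose by 0.62 and Mga fell by 0.29 at day7CL. Of 5 phosphatidylinositol transfer proteins Pitpnm1 fell by 0.37 and 0.41, of 9 G alpha subunits Gna12 rose by 0.31 at day7CL, of 4 sideroflexins Sfxn1 fell by 0.28 at day7CL, and of 11 NuRD loci Mta2 fell by 0.29 at day7CL. Of the reference genes, Ucp1 rose by 0.39 at day7C (adjusted p = 0.034), Cidea by 0.41 at day7C (adjusted p = 0.0054) and 0.34 at day7CL (adjusted p = 0.018) and Pparg by 0.28 at day7CL (adjusted p = 0.020), Adipoq fell by 0.49 and 0.61, and Ppargc1b was lower with CL than with cold (-0.19, adjusted p = 0.023). Across clusters the Adipoq locus was highest in Cd4 cells, at 640 CPM, with 247 CPM in white and 225 CPM in beige nuclei. Its sum is therefore not particular to adipocytes. None of 8 septins, 7 CCR4-NOT subunits, 5 loci of RHOA and its partners or 3 Dbl family relatives was called at day 7 by edgeR.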

How the data were processed

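Nuclei of iWAT from 21 mice were profiled by snATAC-seq in 4 pooled lanes, so the mouse, group and cluster of each nucleus come from the deposited metadata. Per the methods, the authors merged the reads of both sequencing runs, aligned them with Bowtie2 to mm10, removed duplicates, mitochondrial reads, shallow nuclei and doublets, called peaks with MACS2 per cluster and clustered nuclei with Signac, and the submitters' processing notes also name SAMtools. The deposited matrix holds counts of 1 where a nucleus has reads in a peak, which cannot tell 1 read from several, and these were not renormalised by the authors. Reads were not aligned again.

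Entries were summed over the peaks of a gene body with 50 kb on either side, per mouse and cluster, and libraries with under 10 nuclei were dropped. Levels are means of per-mouse CPM with their SD. Loci and peaks were tested over the whole table with edgeR 4.0.16 in R 4.3.3 (quasi-likelihood, TMM factors, prior count 2), after filterByExpr. The filter asked for 10 entries, scaled to the median library size, in as many libraries as the smallest group held, and 15 in total. Its proportion, set to 0.7, has no effect in groups this small. Tests were two-sided, and p-values were adjusted per contrast after Benjamini and Hochberg with a threshold of 0.05. All groups shared a fit, treated groups share the day0RT mice, and edgeR does not let a p fall below that of counting error alone. The difference between clusters was fitted as an interaction over 19 mice. Other tools were DESeq2 1.42.0, the R package data.table (version 1.17.8), Python 3.11.15, numpy 2.4.6, scipy 1.17.1, pandas 2.3.3 and matplotlib 3.10.9. The steps were tested on simulated data. The study describes its 3 mice a group as biological replicates and its experiments as 3 independent batches, but the sources used here do not say which mouse belongs to which batch. The SE of an edgeR log2 change was derived from its test, as the absolute change divided by the square root of the F statistic. Intervals other than SD and SE were not computed.

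The genes and family lists were chosen with earlier results of these data known. Named were all 10 genes, for each the peak with the largest beige minus white difference and up to 3 called peaks, genes starting in the loci, 5 reference genes, at most 3 called genes of each family and the 2 loci most alike. Alternatives were DESeq2, DESeq2 size factors, no filter, at least 30 nuclei, nuclei thinned to 1000 entries, other peak windows, only the groups compared, the replicate number as a block and each mouse left out. Leaving out the day 1 groups, CL against cold within white or beige nuclei and the interaction were chosen after seeing the data. Motifs were searched as consensus letters in the GRCm38 sequence of each peak. Arhgap26 has 2 annotated identifiers, and the 1 with the lower number was used. Some results that name other genes are not reported here.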

Additional observations from a re-analysis of the deposited data

Results flagged for a closer look

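These results differed between cold and CL, or between white and beige nuclei in that contrast, by a test of the difference itself, as log2 differences by edgeR. The cause was not tested.

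The beige to white gap of Sept9 was narrower with CL than with cold at day 3 (-0.59), at day 7 (-0.74) and for the mean of the times (-0.57). At Myc the beige level relative to the white was higher with CL at day 7 (0.81) and for the mean (0.58). The gaps of Zfp827 (-0.63), Sfxn5 (-0.40), Gnao1 (-0.39) and Arhgef37 (-0.37) were narrower for the mean. Without the day 1 groups the means of Zfp827 (-0.44), Sfxn5 (-0.28), Gnao1 (-0.22) and Myc (0.47) were not called.

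Within beige nuclei, CL was lower than cold at Sept9 (-0.45 at day 3, -0.46 at day 7 and -0.38 for the mean), at Sfxn5 (-0.50 at day 3 and -0.46 for the mean) and at Arhgef37 (-0.41 for the mean). Within white nuclei the means were higher with CL at Gnao1 (0.22), Sept9 (0.18) and Gse1 (0.16) and lower at Myc (-0.33). In all adipocyte nuclei the mean was lower with CL at Sfxn5 (-0.17). The white means of Gnao1, Sept9 and Gse1 and this Sfxn5 mean were not called without the day 1 groups.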

How the results depend on the processing

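Of the 22 called changes of single loci, 22 kept their call with no filter and with DESeq2 size factors, 14 with DESeq2, 15 with the gene body and 2 kb upstream, 15 with the peaks nearest to the gene start, 5 of 21 with peaks within 2 kb of the start and 4 with thinned nuclei. With peaks within 2 kb of the start, the estimate changed sign for Gnao1 at day7C (-0.18), at day7CL (-0.073) and in white nuclei at day7CL (-0.025). It also changed sign for Sfxn5 at day7C (-0.088) and over the cold times (-0.068). Thinning to 1000 entries lowers the depth of all libraries and leaves out shallower nuclei. With at least 30 nuclei no beige library of day0RT was left, so beige nuclei gave no value.

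Treated against day0RT, the 13 calls in all adipocytes became 2 with thinned nuclei and 2 within 2 kb of the start. The 7 calls in white nuclei became 4 with DESeq2, 2 with thinned nuclei and 3 within 2 kb. The 1 call in beige nuclei became 0 with thinned nuclei, under each of the 3 other peak windows, with only the groups compared and without the day 1 groups. For CL against cold, the 1 call in all adipocytes became 0 with DESeq2, with thinned nuclei, within 2 kb of the start and without the day 1 groups, 2 with the gene body and 2 kb upstream and 3 with the nearest peaks. It was 4 in white nuclei, 6 in beige nuclei and 6 in beige nuclei without the day 1 groups. The 51 peak calls became 0 with DESeq2, 12 with no filter and 0 with thinned nuclei. The 13 in white nuclei became 0, 2 and 0, and 21 with at least 30 nuclei and 8 with only the groups compared.

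With each mouse left out in turn, calls ranged from 8 to 15 in all adipocytes (8 without day0RT mouse 1), from 4 to 8 in white nuclei (4 without day7CL mouse 1) and from 0 to 2 in beige nuclei (0 without day0RT mouse 1 or 3 or day1CL mouse 3, and 2 without day7CL mouse 3). For CL against cold they ranged from 0 to 2, with 0 without day1C mouse 2, day3C mouse 2, day7C mouse 1, day1CL mouse 2 or 3, day3CL mouse 2 or 3 or day7CL mouse 1, and 2 without day7CL mouse 3. Peak calls ranged from 6 to 54 in all adipocytes (16, 24 and 6 without day0RT mouse 1, 2 and 3) and from 1 to 22 in white nuclei. These were 4 and 1 without day0RT mouse 1 and 3, 20 without day1C mouse 2 or day7C mouse 1, 21 without day1CL mouse 1 and 22 without day1C mouse 3, day3CL mouse 1 or day7CL mouse 3.

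The replicate number as a block gave 13, 6, 1 and 1 calls of loci in the same order and 46 and 11 peak calls, and took the call of Myc in white nuclei at day3C. Mice of 1 number did not deviate together (63 pairs, r of -0.13 to 0.12, and 8 of 21 libraries most like a library of their own number). The study names 3 batches, and whether the mouse numbers mark them is not given in the sources used here, so a batch effect was not tested apart from this block. In the non-adipocyte clusters 0 calls were made under each alternative run.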
